A study of Mus musculus with 6 samples.

Results

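The genes described here are 30 markers that have been used to recognise reactive astrocytes, followed with and without pulsed radiofrequency (PRF) in C8-D1A, an astrocyte line cloned from mouse. They were chosen by name, with earlier results of these data known. On the array 29 of them were represented, by 41 of its 56605 probes. No probe was matched to Ugt1a1, which encodes the enzyme that conjugates bilirubin. The set holds 11 pan-reactive genes (Lcn2, Steap4, S1pr3, Timp1, Cd44, Cp, Serpina3n, Aspg, Vim, Gfap and Nes), 9 A1 genes (H2-T23, H2-D1, Ggta1, Iigp1, Fbln5, Ugt1a1, Fkbp5, Srgn and Amigo2) and 10 A2 genes (Tgm1, Ptx3, S100a10, Sphk1, Cd109, Emp1, Slc10a6, Tm4sf1, B3gnt5 and Cd14). RNA of 3 untreated cultures (Control) and 3 cultures given PRF, an electrical stimulation in short high-frequency bursts that is used against neuropathic pain, was measured on 6 one-colour Agilent arrays. All cultures were of the same cloned line, grown in serum for 6 days and kept without serum for 24 h before use, and the labels give 3 independent experiments. The settings of the PRF device, and how long after it RNA was taken, are not stated in the labels. The line is 1 clone grown without other cell types, so the values describe these cells and not astrocytes in tissue.

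Astrocytes respond to injury, infection and inflammation by a state called reactivity, in which intermediate filament genes such as Gfap and Vim and a range of secreted and surface proteins are typically raised. Pan-reactive genes were defined as those raised in mouse astrocytes both by systemic inflammation and by ischaemia, A1 genes as those raised mainly by inflammation, and A2 genes as those raised mainly by ischaemia. Factors released by microglia, such as IL-1α, TNF and C1q, are known inducers of A1 genes. Cytokines of the IL-6 family acting through STAT3 are known inducers of several pan-reactive and A2 genes.

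Of the 22 markers that could be tested, Cp, H2-T23, Srgn and Tm4sf1 rose, Sphk1 fell and 17 did not pass the threshold, an adjusted p below 0.05 over all probes tested. Of all 15063 tested genes 29.7% passed, 16.3% upward and 13.5% downward, so a count of 5 among 22 is near the background and is no result about the markers as a set. Past the threshold and at least 2-fold were Srgn and Tm4sf1, 2 of 22, against 8.54% of all tested genes, again near the background. By class, 1 of 10 tested pan-reactive genes rose and 0 fell, 2 of 6 A1 genes rose and 0 fell, and 1 of 6 A2 genes rose and 1 fell. Median differences (PRF minus Control, log2) were -0.042 for the pan-reactive, 0.28 for the A1 and 0.066 for the A2 genes, against -0.0060 for all tested genes. Testing required a signal well above background on each of the 3 arrays of Control, of PRF or of both, so Srgn and Cd14 entered through the PRF arrays and Aspg through the Control arrays. Srgn was tested because it was bright in PRF cells, so its place in these counts gives no support beyond its own values. Among the 19 markers well above background on all 6 arrays, 3 rose and 1 fell, against 26.7% of all such genes called in either direction. The p-values measure the spread between 3 cultures per group, and that number limits the precision of every value below.

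**Figure D1:**
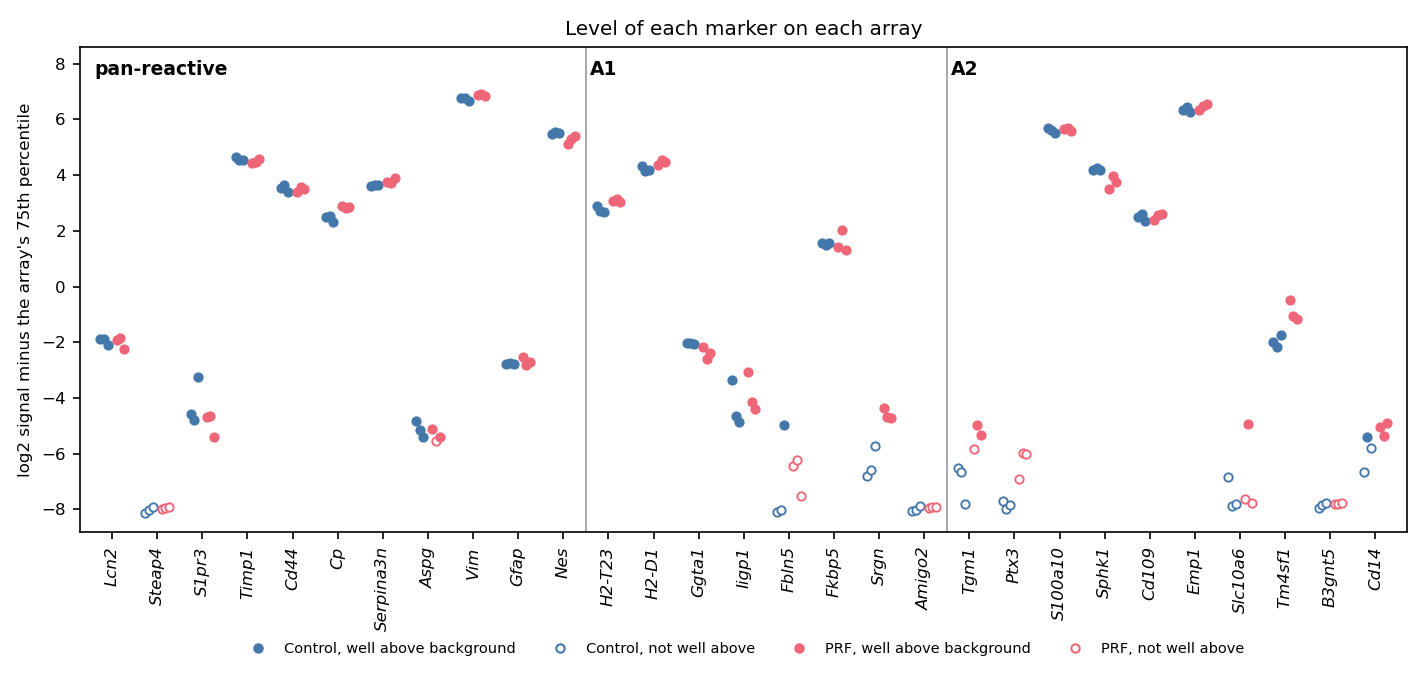
Level of each of the 29 markers on each of the 6 arrays, as the log2 signal of its probe minus the 75th percentile of the array (y axis), with Control in blue and PRF in red, replicates 1 to 3 from left to right, and open points where the probe was not well above background. Levels of different genes come from different probes and cannot be set against each other. Srgn is open in all Control cultures and filled in all PRF cultures, and Steap4, Amigo2, Ptx3 and B3gnt5 are open throughout.

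The sequences before the transcription start are shown for the 5 called markers, and for H2-D1 because it is the classical relative of H2-T23, so that the letters shared and not shared by the genes that moved can be seen. They are the 250 bases before the start in RefSeq, mouse build GRCm38.p6, for the most upstream start listed (Cp has 2 starts, Srgn 2 and Sphk1 5). Capitals mark matches, on either strand, to a STAT motif (TTCNNNGAA), an AP-1 motif (TGANTCA), a heat shock element (GAANNTTC), a glucocorticoid response element, a TATA box (TATAAA) or an NF-kB site.
Cp (chr3:19956804-19957053, plus strand): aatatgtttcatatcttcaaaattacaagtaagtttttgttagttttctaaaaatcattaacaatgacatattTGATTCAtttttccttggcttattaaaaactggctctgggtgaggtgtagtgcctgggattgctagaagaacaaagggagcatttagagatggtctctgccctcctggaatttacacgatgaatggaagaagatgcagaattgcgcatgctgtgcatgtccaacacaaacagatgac
H2-T23 (chr17:36032702-36032951, minus strand): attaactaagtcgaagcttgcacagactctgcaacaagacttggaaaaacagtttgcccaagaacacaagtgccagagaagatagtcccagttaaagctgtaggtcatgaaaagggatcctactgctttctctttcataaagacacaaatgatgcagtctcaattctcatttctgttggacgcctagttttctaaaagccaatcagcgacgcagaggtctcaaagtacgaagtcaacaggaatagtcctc
Srgn (chr10:62527446-62527695, minus strand): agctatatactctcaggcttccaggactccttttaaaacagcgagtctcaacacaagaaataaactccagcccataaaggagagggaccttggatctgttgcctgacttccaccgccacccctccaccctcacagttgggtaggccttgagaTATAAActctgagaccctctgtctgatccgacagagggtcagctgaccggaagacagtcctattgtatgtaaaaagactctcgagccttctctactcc
Tm4sf1 (chr3:57301989-57302238, minus strand): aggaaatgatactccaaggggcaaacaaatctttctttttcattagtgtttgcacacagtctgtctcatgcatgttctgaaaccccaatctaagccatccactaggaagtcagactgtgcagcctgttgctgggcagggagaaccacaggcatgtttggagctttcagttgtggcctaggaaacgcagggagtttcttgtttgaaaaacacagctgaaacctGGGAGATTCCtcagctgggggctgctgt
Sphk1 (chr11:116530850-116531099, plus strand): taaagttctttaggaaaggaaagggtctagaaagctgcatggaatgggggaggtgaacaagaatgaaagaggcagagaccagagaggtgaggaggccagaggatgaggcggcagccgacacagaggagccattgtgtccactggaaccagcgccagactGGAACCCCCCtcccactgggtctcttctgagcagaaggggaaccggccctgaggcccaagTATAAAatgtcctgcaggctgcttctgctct
H2-D1 (chr17:35262844-35263093, plus strand): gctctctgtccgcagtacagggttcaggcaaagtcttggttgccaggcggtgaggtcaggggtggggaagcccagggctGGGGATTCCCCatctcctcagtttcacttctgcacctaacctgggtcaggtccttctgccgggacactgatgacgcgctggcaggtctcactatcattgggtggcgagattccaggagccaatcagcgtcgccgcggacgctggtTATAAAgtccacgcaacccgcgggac

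In these windows the capitals are an AP-1 motif 177 bases before the start of Cp, a TATA box 98 bases before that of Srgn, an NF-kB site 28 bases before that of Tm4sf1, and an NF-kB site and a TATA box 91 and 31 bases before that of Sphk1. None of the 6 motifs was found in the window of H2-T23, while that of H2-D1 held 2 overlapping NF-kB sites, 171 and 170 bases before the start, and a TATA box 26 bases before it. Starts of the called markers that are not shown held further matches. TATA box matches lay 27 and 25 bases before the second start of Cp. For Sphk1 a STAT and an AP-1 motif lay 41 and 50 bases before a further start. The same letters lay 115 and 124 bases before another start, whose window overlaps. Sequences were found for 26 of the 30 markers, with 35 starts. Over those 35 windows the NF-kB site was found in 14.3% (7.25% of all 32851 windows of that length in the table), the STAT motif in 14.3% (7.02%), the AP-1 motif in 11.4% (6.75%), the heat shock element in 2.86% (6.69%), the glucocorticoid response element in 5.71% (0.387%) and the TATA box in 20.0% (12.4%). The glucocorticoid response element was found in 2 windows, those of Serpina3n and Slc10a6. Windows of 1 gene can overlap, and the shared STAT and AP-1 letters of Sphk1 count more than once in these shares. The matches describe letters and not binding.

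Among the pan-reactive genes, those for iron and metal handling gave the single rise. Cp encodes ceruloplasmin, a copper-carrying ferroxidase that astrocytes use in iron export. Its brightest probe had log2 levels of 2.51, 2.54 and 2.33 in Control and 2.90, 2.83 and 2.85 in PRF cells. All PRF cultures lay above all Control cultures, a 1.32-fold rise (log2 difference 0.40, SE 0.08, adjusted p = 0.0120). The 3 other probes of this gene gave changes of other sizes. The second had levels of -0.83, -0.92 and -1.02 in Control and 0.70, 0.54 and 0.29 in PRF cells, a 2.70-fold rise (adjusted p = 4.78e-04). The third rose 2.16-fold (-1.13 ± 0.13 against -0.02 ± 0.28, SD, n = 3, adjusted p = 0.00327). The last, whose PRF cultures also all lay above the Control cultures, missed the threshold (-0.69 ± 0.06 against -0.51 ± 0.10, SD, n = 3, adjusted p = 0.135). The first and second are listed for the same RefSeq transcript and the remaining 2 for 1 other transcript each, and the size of the change differed between probes of the same transcript. On its brightest probe Cp missed the threshold with no scaling between arrays (adjusted p = 0.198) and with spike-in scaling (adjusted p = 0.101), with differences of 0.26 and 0.21.

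**Figure D2:**
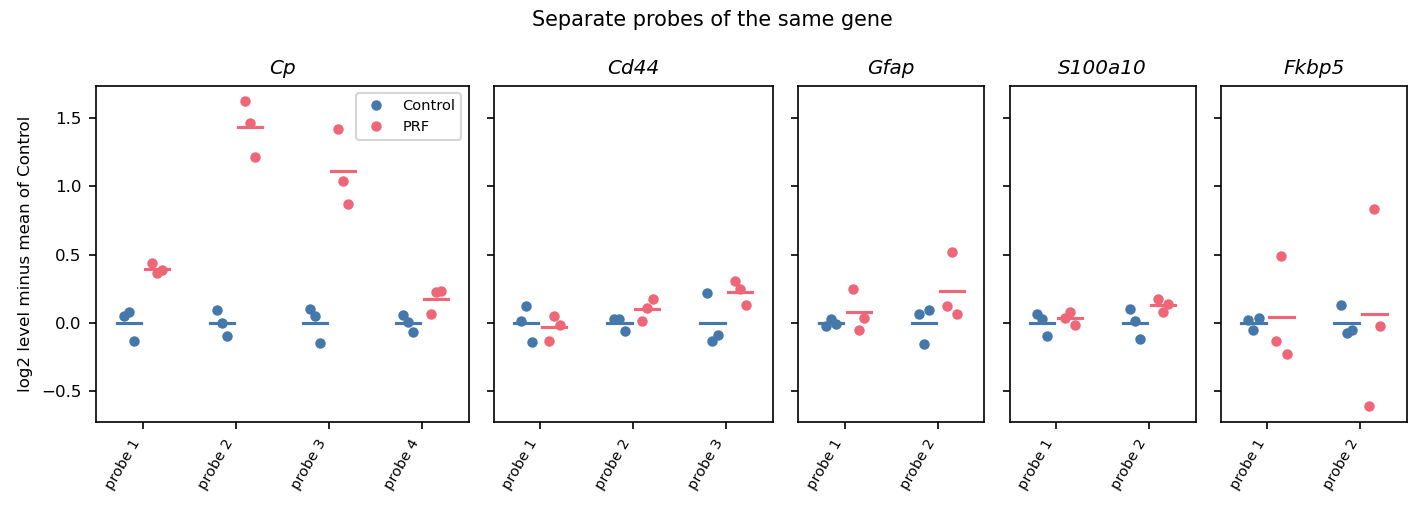
Level of each probe on each array minus that probe's mean in Control cells (y axis, log2), for 5 markers with more than 1 tested probe. Points are cultures (Control blue, PRF red) and short lines are group means. PRF cultures of probes 2 and 3 of Cp lie above the Control cultures by far more than those of probes 1 and 4, and both probes of Fkbp5 are high in PRF replicate 2 only.

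Lcn2 and Steap4, the other genes of this kind, gave no call. Lcn2 encodes lipocalin 2, a secreted protein that binds iron-carrying siderophores and is among the most strongly raised genes of reactive astrocytes in vivo. Its levels were -1.89, -1.87 and -2.11 in Control and -1.91, -1.86 and -2.25 in PRF cells. The groups overlapped, with replicate 3 the lowest of each, and the difference was -0.05 (95% interval -0.36 to 0.26, adjusted p = 0.786). A second Lcn2 probe was dim, not well above background, on all 6 arrays, and so was Steap4, a metalloreductase.

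The intermediate filament genes were all well above background in Control cells. Gfap, the classical marker of astrocyte reactivity, had levels of -2.78, -2.73 and -2.77 in Control and -2.51, -2.81 and -2.72 in PRF cells. The Control cultures lay inside the range of the PRF cultures, and the interval of the difference ran from -0.14 to 0.30 (adjusted p = 0.552). A second Gfap probe, for another RefSeq transcript, averaged -3.74 ± 0.14 (SD, n = 3) in Control against -3.50 ± 0.24 in PRF cells, which did not pass either (adjusted p = 0.243). Vim, which encodes vimentin, had levels of 6.75, 6.76 and 6.66 in Control and 6.87, 6.93 and 6.84 in PRF cells. All PRF cultures were higher, but by 0.16 (SE 0.06) and without passing the test (adjusted p = 0.119). Nes encodes nestin, a filament of neural progenitors and some reactive astrocytes. Its levels were 5.48, 5.54 and 5.51 in Control and 5.11, 5.29 and 5.39 in PRF cells, lower in all PRF cultures by a difference of -0.25 (SE 0.09) that did not pass (adjusted p = 0.0766). Nes passed downward with median scaling, quantile normalization, no scaling, spike-in scaling and normexp background correction, and without PRF replicate 3, with adjusted p from 0.0119 to 0.0450.

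Among the other pan-reactive markers no call was made with the 75th percentile. Serpina3n, a secreted inhibitor of serine proteases, had levels of 3.62, 3.64 and 3.64 in Control and 3.76, 3.71 and 3.89 in PRF cells. All PRF cultures were higher, by 0.15 (SE 0.07, adjusted p = 0.154). Timp1, an inhibitor of metalloproteinases, averaged 4.58 ± 0.05 (SD, n = 3) in Control against 4.51 ± 0.08 in PRF cells, a difference of -0.08 that did not pass (adjusted p = 0.451). With spike-in scaling it was -0.27 and passed (adjusted p = 0.0269). Cd44, the hyaluronan receptor, had 3 probes, none of which passed, with differences of -0.03, 0.10 and 0.23. Aspg, an asparaginase, was at -5.13 ± 0.28 and -5.36 ± 0.21 (SD, n = 3, adjusted p = 0.340) and well above background on 2 of 3 PRF arrays. With quantile normalization Aspg passed downward, at -0.70 (adjusted p = 0.0176), and with normexp its sign turned. S1pr3, a receptor for sphingosine-1-phosphate, had levels of -4.58, -4.77 and -3.25 in Control and -4.67, -4.64 and -5.40 in PRF cells. Control replicate 3 was high and PRF replicate 3 low, so the difference of -0.70 had a wide interval, from -1.74 to 0.34 (adjusted p = 0.262), and it was -0.22 without Control replicate 3.

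The A1 genes of antigen presentation were higher in all PRF cultures, by small amounts. H2-T23 encodes the heavy chain of Qa-1, a non-classical MHC class I molecule that presents peptides to inhibitory receptors of natural killer cells. Its levels were 2.89, 2.71 and 2.66 in Control and 3.09, 3.14 and 3.04 in PRF cells, a 1.26-fold rise (log2 difference 0.33, SE 0.08, adjusted p = 0.0252). Leaving out the second or the third Control culture, or the first or the second PRF culture, ended the call (adjusted p = 0.0824, 0.0751, 0.0676 and 0.0844), as did no filter on dim probes (adjusted p = 0.0546) and leaving the arrays unscaled or scaled to spike-ins (adjusted p = 0.322 and 0.199). H2-D1, a classical MHC class I heavy chain, had levels of 4.34, 4.15 and 4.20 in Control and 4.38, 4.54 and 4.47 in PRF cells. Its difference was 0.23 (SE 0.08, adjusted p = 0.0758), and Control replicate 1 lay close to PRF replicate 1. It passed with normexp (adjusted p = 0.0306) and under no other alternative. Over the alternatives its difference ran from 0.043 to 0.29. Genes of this family share much of their sequence, and reads of one by the probe of another were not tested.

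Srgn encodes serglycin, the proteoglycan core of secretory granules in immune and endothelial cells. Its levels were -6.80, -6.58 and -5.72 in Control and -4.37, -4.69 and -4.70 in PRF cells. Control arrays never read this probe well above background and all PRF arrays did, so only a bound can be given, at least 2.27-fold higher (adjusted p = 0.00527). Here "at least" compares the PRF mean with the Control arrays' own signal or, where higher, the lowest normalized signal called well above background on that array. With normexp background correction, which draws dim signals together, the difference was 0.45 in place of 1.78, below the 0.85 of Tm4sf1 under the same correction, and it still passed. Srgn is also abundant in microglia. Of 7 microglial markers, Aif1, Cx3cr1, P2ry12 and Ptprc were not well above background on any array. Itgam, Tmem119 and Csf1r were well above background on all 6 arrays, those of Control included. Of these 3, Itgam rose by 0.86 (SE 0.13, adjusted p = 0.00406) and Tmem119 and Csf1r did not pass. The summed scaled signal of the list was 8.88 to 9.28 in Control and 13.2 to 17.9 in PRF cells, which follows the single probe of Itgam and adds nothing on the other 6. In RNA of whole cultures, a change in how many cells express a gene and a change in RNA per cell cannot be told apart.

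The remaining A1 genes did not pass. Ggta1, the enzyme that adds α-galactosyl sugars to glycoproteins, had levels of -2.02, -2.01 and -2.06 in Control and -2.15, -2.60 and -2.39 in PRF cells. All PRF cultures were lower, by a difference of -0.35 (SE 0.12, adjusted p = 0.0680), and it passed downward without PRF replicate 1 (adjusted p = 0.0211), with median or spike-in scaling, and with quantile normalization. Iigp1, an interferon-inducible GTPase, had levels of -3.35, -4.64 and -4.85 in Control and -3.07, -4.13 and -4.39 in PRF cells. Replicate 1 was the highest culture of each group, and the interval of the difference was wide, from -0.78 to 1.61 (adjusted p = 0.558). Fkbp5 encodes a co-chaperone of the glucocorticoid receptor and is itself induced by glucocorticoids. Its levels were 1.56, 1.49 and 1.57 in Control and 1.41, 2.03 and 1.31 in PRF cells, with PRF replicate 2 apart from all other cultures. The second Fkbp5 probe was also highest in that culture, at -2.28, -0.83 and -1.69 in PRF cells against -1.67 ± 0.11 (SD, n = 3) in Control cells. Neither probe passed (adjusted p = 0.882 and 0.898), and the difference of the first was -0.18 without that culture. Fbln5, an elastic fibre protein, was well above background on 1 Control array and no PRF array. Amigo2, a neuronal adhesion molecule, was not so on any array.

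**Figure D3:**
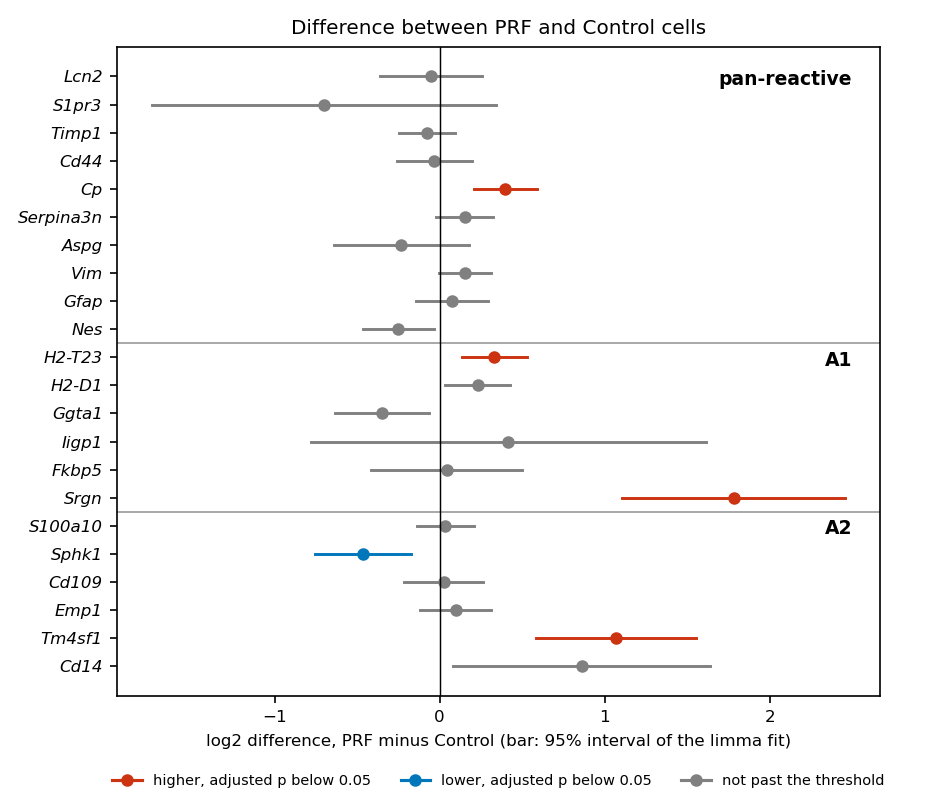
Difference between PRF and Control cells for the 22 tested markers (x axis, log2, PRF minus Control), with 95% intervals of the limma fit, by class. Red points passed upward (Cp, H2-T23, Srgn and Tm4sf1), the blue point passed downward (Sphk1) and grey points did not pass. Grey intervals other than those of S1pr3, Iigp1 and Cd14 lie within 0.7 of 0 on the log2 scale. The point of Srgn is the fitted value of a probe that was dim in Control cells.

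In the A2 class 1 membrane protein rose and 1 lipid kinase fell. Tm4sf1 encodes a small membrane protein with 4 membrane-spanning segments that is known from endothelial and tumour cells. Its levels were -1.99, -2.16 and -1.74 in Control and -0.48, -1.06 and -1.15 in PRF cells. All PRF cultures were higher, a 2.10-fold rise (log2 difference 1.07, SE 0.20, adjusted p = 0.0101) that held under the 5 scalings and on leaving out each culture in turn. Sphk1 makes sphingosine-1-phosphate, the ligand of S1pr3. Its levels were 4.18, 4.25 and 4.18 in Control and 3.50, 3.96 and 3.76 in PRF cells, all lower, a 1.38-fold fall (adjusted p = 0.0306). For Sphk1 the call ended on leaving out any Control culture or the third PRF culture (adjusted p from 0.0610 to 0.0914), with no filter on dim probes (adjusted p = 0.0680) and with array row on the slide as a block (adjusted p = 0.0703). Within rows 1 and 2 of the slide, which hold 3 arrays each, the differences were 0.41 and 0.33 for Cp, 0.36 and 0.35 for H2-T23, 1.57 and 2.04 for Srgn, 0.81 and 1.35 for Tm4sf1, and -0.22 and -0.62 for Sphk1, none of them past the threshold.

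The other A2 genes of the cell surface and secreted space gave no call. Emp1, a membrane protein related to peripheral myelin protein, had levels of 6.34, 6.46 and 6.27 in Control and 6.32, 6.49 and 6.54 in PRF cells, and the groups overlapped (adjusted p = 0.445). S100a10, the partner of annexin A2, had 2 probes with differences of 0.04 and 0.13 (adjusted p = 0.741 and 0.247). Cd109, a surface protein that binds TGF-β, was at 2.49 ± 0.12 and 2.52 ± 0.13 (SD, n = 3, adjusted p = 0.872). For these 3 genes the interval of the difference on the brightest probe stayed between -0.21 and 0.31. Cd14, a co-receptor for bacterial lipopolysaccharide, passed the background limit on all PRF arrays but on 1 of 3 Control arrays. Its levels were -6.66, -5.39 and -5.81 in Control and -5.04, -5.35 and -4.88 in PRF cells. The fitted difference of 0.86 did not pass (adjusted p = 0.0898), though it did without Control replicate 2 (adjusted p = 0.0427) and with normexp (adjusted p = 0.0275). Over the alternatives the difference of Cd14 ran from 0.23 to 1.14. A second Cd14 probe was dim on all Control arrays and well above background on 2 of 3 PRF arrays, and was not tested.

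For 4 A2 genes no fold is given. Tgm1, a transglutaminase, had levels of -6.53, -6.67 and -7.79 in Control and -5.82, -4.98 and -5.31 in PRF cells. It was well above background on 2 PRF arrays only and was not tested. The PRF level of -5.82 was not well above background, so no bound is given. Ptx3, a long pentraxin of innate immunity, stayed below that limit on every array, although all PRF cultures (-6.89, -5.96 and -6.01) read higher than all Control cultures (-7.70, -7.99 and -7.85). With no filter on dim probes the fit gave adjusted p = 0.0186 for Ptx3 and 0.0504 for Tgm1. The Ptx3 value rests on signals below the background limit throughout, so it is not read as a rise. Slc10a6, a transporter of sulfated steroids, was well above background in PRF replicate 2 alone. B3gnt5, which starts a class of glycolipids, was dim on every array with all 3 of its probes.

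PRF cultures lay wholly above Control cultures for 8 of the 22 tested markers and wholly below for 3, against 25.5% and 25.6% of all tested genes. The 8 were Cp, Serpina3n, Vim, H2-T23, H2-D1, Srgn, Tm4sf1 and Cd14, and the 3 were Nes, Ggta1 and Sphk1. Srgn and Cd14 entered the test through the PRF arrays, so their place among the 8 gives no support beyond their own values. Both counts depend on the scaling. With no scaling Cp, Srgn and Tm4sf1 stayed wholly above, and Nes, Ggta1 and Sphk1 wholly below. Serpina3n, Vim, H2-T23, H2-D1 and Cd14 then overlapped, while Timp1 lay wholly below. The shares of all tested genes were not counted with no scaling. The median size of the difference, in either direction, was 0.23 for the tested markers and 0.17 for all tested genes (log2).

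How the arrays were scaled moved the small differences together, since the median over all tested genes was -0.15 with no scaling and -0.20 with spike-in scaling. Over all tested genes 2450 rose and 2030 fell with the 75th percentile, 2207 and 2776 with median scaling, 2107 and 2878 with quantile normalization, 1630 and 3069 with no scaling, and 1816 and 5626 with spike-in scaling. Of the called markers, Srgn, Tm4sf1 and Sphk1 passed in the same direction under all 5 scalings. Cp and H2-T23 passed with 3 of them. With no scaling 2 markers passed upward and 2 downward (31.2% of all genes called), and with spike-in scaling 2 and 4 (49.4%). The sign of the difference of Gfap, Emp1, S100a10, Cd109 and Fkbp5 turned under some scalings, and that of Vim and Serpina3n turned with spike-in scaling alone among the 5, so their directions above hold for the 75th percentile.

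**Figure D4:**
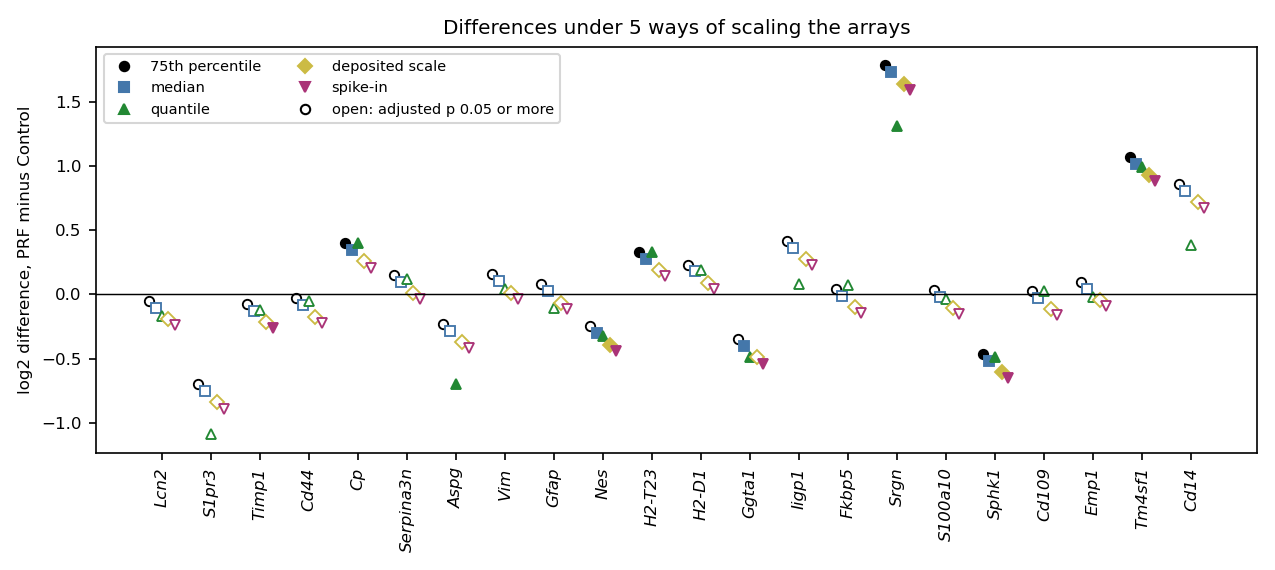
Difference of each tested marker (y axis, log2, PRF minus Control) under 5 ways of scaling the arrays, with filled symbols where the adjusted p was below 0.05. Srgn, Tm4sf1 and Sphk1 are filled under all 5, Cp and H2-T23 under 3, and Nes under all but the 75th percentile.

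Genes of the same published panels that are not among the 30 markers are given for comparison, which was not tested. Of 10 such genes 8 were tested, 4 rose and 0 fell, against 16.3% and 13.5% of all tested genes. These genes too were chosen with earlier results of these data known, so the count is no result about them as a set. Hspb1 and Psmb8 entered the test through the PRF arrays alone, and their folds are fitted values that rest on Control arrays mostly below the background limit. Of the 6 well above background on all 6 arrays 2 rose. The rises were those of Hspb1, a small heat shock protein (fitted 61.1-fold, well above background on 1 of 3 Control arrays, adjusted p = 1.11e-04), complement C3 (3.89-fold, adjusted p = 4.47e-04), Psmb8, an immunoproteasome subunit (fitted 3.27-fold, well above background on 1 of 3 Control arrays, adjusted p = 0.0172) and the chemokine Cxcl10 (2.27-fold, adjusted p = 0.00642). Serping1, Gbp2, Clcf1 and Stat3 did not pass, and Osmr, the oncostatin M receptor, and Ptgs2 were not well above background on any array.

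Among 40 inducers and signalling genes of astrocyte reactivity, 33 were tested, 10 rose and 0 fell, against 16.3% and 13.5% of all tested genes. The list was chosen with earlier results of these data known, so the count is no result about the list as a set. Osm, like Srgn, was tested because it was bright in PRF cells. Of the ligands of the IL-6 family, 3 rose: Osm at least 13.9-fold (dim on all Control arrays, adjusted p = 6.43e-05), Lif 3.18-fold and Cntf 1.67-fold. Il6 itself had a difference of 0.48 that did not pass (adjusted p = 0.101). Edn1, the endothelin 1 precursor, rose 15.4-fold. Il1a, Il1b and Ifng were not well above background on any array, and Tnf did not pass. Of the C1q chains, C1qb did not pass (adjusted p = 0.240) and C1qc was dim on all 6 arrays. C1qa was well above background on 1 PRF array (level -5.06) and no Control array, and was not tested. Its other PRF levels, -5.97 and -5.86, were not well above background, so no bound is given. Of 9 tested receptors Il6ra alone passed, 1.77-fold higher. Of 15 transcription and signalling genes 5 rose, by 1.24-fold to 1.64-fold: Nfkb1, Socs3, Nfkbia, Cebpd and Cebpb. Socs3, which is induced by STAT3, had a difference of 0.42 (SE 0.10, adjusted p = 0.0208).

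Markers of cell identity did not fully match the astrocyte label. Of 12 astrocyte markers 9 were well above background on all Control arrays, among them S100b, Glul and Aldh1l1, while Slc1a3, Gja1 and Gjb6 were not on any array. The oligodendrocyte lineage markers Sox10, Olig1, Olig2, Mbp, Mog and Pdgfra and the neuronal markers Tubb3, Map2 and Snap25 also passed the background limit in every Control culture. The neuronal markers Rbfox3 and Syt1 passed it in no Control culture. Rbfox3 did not pass it in PRF cells either, and Syt1 did on 1 PRF array. Some identity markers differed between the groups. Apoe rose 2.13-fold, Mbp 1.99-fold, Snap25 1.96-fold, Col1a1 1.36-fold and Glul 1.22-fold, and Col1a2, bright on 1 of 3 Control arrays, rose by a fitted 6.57-fold. Mog, Sox10 and Pdgfrb fell 1.32-fold, 1.28-fold and 1.24-fold. The part of these markers in the results above was not tested. The share of probes past the background limit was 61.2%, 59.5% and 59.6% in Control and 63.9%, 63.3% and 62.1% in PRF cells. All PRF arrays thus lay above all Control arrays in this share. Its part in the results of markers that passed the limit mainly or only in PRF cells was not tested. On 1 array 1 spot was saturated.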

How the data were processed

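C8-D1A cells were measured on 6 arrays, 3 Control and 3 PRF. The deposited intensity values are scanner output of Agilent Feature Extraction. The file headers give version 10.7.3.1 and mouse build mm9, and per the file headers the intensities are background-corrected processed signals and median spot and background signals, with no normalization between arrays. The authors' deposited series table holds the same intensity (equal within a relative tolerance of 0.0001 for 99.98% to 100% of probes). Each spot's deposited flags, of no other unit, mark outliers, saturation and signals well above background.

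Control and outlier spots were left out, log2 signals of a probe's spots were averaged, and each array's 75th percentile was subtracted. Probes were named by RefSeq transcript (GRCm38.p6), 32994 of 56605, covering 22911 genes. The files' build differs, so probes have no coordinates here. The brightest probe stood for its gene. Probes well above background on all arrays of a group (34838) were fitted with limma 3.58.1 in R 4.3.3 (lmFit, eBayes, group only), with Benjamini-Hochberg adjustment over all tested probes and a threshold of 0.05, after a check on simulated data. Alternatives were other scalings, normexp (offset 50) on median signals, filters, blocks, the series table, the mean of a gene's probes and leaving out each culture. The markers and lists were chosen with earlier results of these data known. All 30 markers are accounted for, and of other lists up to 3 rises and 3 falls were to be named. Cxcl10 and the further signalling and cell marker genes were named after their values were seen.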

Additional observations from a re-analysis of the deposited data

How the results depend on the processing

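Of 415 values of the 22 tested markers under alternatives, 337 kept their direction and side of the threshold, 25 lost a call, 16 gained one and 37 changed sign. None of the 5 called markers changed sign.

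Over all probes, 6415 passed upward and 4418 downward. The upward count was 4096 with no scaling, and 2672 and 161 within array rows 1 and 2, which hold 3 arrays each and leave 1 group with a single array. The downward count was 7309 with quantile normalization, 11601 with spike-in scaling, 2805 with no filter, and 537 and 1 within rows 1 and 2. Rises and falls were 5747 and 5865 with median scaling. Leaving out 1 culture gave 4768 to 6192 upward and 2452 to 4492 downward.

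Markers passing upward (4) were 2 with no scaling and with spike-in scaling, and 0 within row 1 and within row 2. Markers passing downward (1) were 3 with median scaling, 4 with spike-in scaling and quantile normalization, 2 with no scaling and with normexp, and 0 with no filter, with the row block and within either row. Pan-reactive rises (1) were 0 with no scaling, with spike-in scaling and within either row. Pan-reactive falls (0) were 1 with median scaling, no scaling and normexp, and 2 with quantile normalization and spike-in scaling. A1 rises (2) were 1 with no scaling, spike-in scaling, the filter on all 6 arrays and no filter, and 0 within either row. A1 falls (0) were 1 with median scaling, quantile normalization and spike-in scaling. A2 rises (1) were 2 with normexp and with no filter. The fit with no filter added Ptx3, which was dim on every array. A2 falls (1) were 0 with no filter, the row block and within either row. Leaving out 1 culture gave 3 to 4 markers upward and 0 to 2 downward, with 1 and 0 to 1 pan-reactive, 1 to 2 and 0 to 1 A1, and 1 to 2 and 0 to 1 A2 genes. Within a row fewer arrays enter the fit. The cause of the other moves was not tested.

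Values that turned sign, none past the threshold, were these. With spike-in scaling the value was -0.038 for Serpina3n, -0.034 for Vim, -0.11 for Gfap, -0.15 for Fkbp5, -0.15 for S100a10, -0.16 for Cd109 and -0.092 for Emp1. With no scaling the value was -0.064 for Gfap, -0.10 for Fkbp5, -0.11 for S100a10, -0.12 for Cd109 and -0.043 for Emp1. With median scaling the value was -0.010 for Fkbp5, -0.018 for S100a10 and -0.029 for Cd109. With quantile normalization the value was -0.11 for Gfap, -0.037 for S100a10 and -0.017 for Emp1. With normexp the value was 0.069 for Aspg and -0.0074 for Cd109. With the mean of probes the value was 0.10 for Cd44. Within row 1 the value was 0.14 for Lcn2, 0.11 for Cd44, -0.038 for Gfap and -0.030 for Iigp1. Within row 2 the value was -0.13 for Fkbp5, -0.017 for S100a10, -0.12 for Cd109 and -0.027 for Emp1. Leaving out each culture gave -0.13 to 0.071 for Lcn2, -0.10 to 0.031 for Cd44, -0.0067 to 0.14 for Gfap, -0.18 to 0.18 for Fkbp5, -0.013 to 0.070 for S100a10 and -0.038 to 0.10 for Cd109.

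The labels do not say whether replicate numbers, which are also slide columns, mark shared experiments. Deviations of same-numbered cultures correlated at 0.15, -0.08 and 0.05, which does not settle whether they were paired. With the replicate block 5790 probes passed upward and 3632 downward, and 5 markers upward and 1 downward, Iigp1 being added (adjusted p = 0.0282).

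Signal over background limits the dim markers, 7 of which could not be tested.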
